A study of Mus musculus with 8 samples.

Results

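The 10 genes Mpo, Elane, Ctsg, Ms4a3, Cebpe, Mgst1, Fcnb, S100a8, S100a9 and Chil3 belong to the programme of developing and mature neutrophils, and they were measured in mouse splenic T cells with and without Lsp1. They are 10 of the 15139 genes tested, each read from its brightest probe named through a RefSeq transcript. All 10 passed the filter on dim probes, 9 of them were well above background on all 8 arrays, and Fcnb was so on 6. The list was chosen by its signals on the Lsp1-deficient (KO) arrays, which were known when it was drawn up, so differences between genotypes, and between the KO arrays, are given as a description with no test. On both KO arrays numbered replicate 2, all 10 genes stood above every other array of the same condition, by 1.55 log2 units or more. KO replicate 1 lay among or near the wild-type (WT) arrays for most of them, and below both for the late granulocyte genes.

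Stimulated KO cells, stimulated WT cells, KO cells in medium and WT cells in medium each had 2 one-colour Agilent arrays, so the number of arrays limits the precision. For stimulation the cells received antibodies to CD3 (part of the T cell receptor) and to CD28 (a costimulatory receptor) for 6 h. KO mice carried Lsp1 -/- on a C57BL/6 background (backcross generation N10), WT mice were C57BL/6 (Lsp1+/+), and all were 8 to 12 weeks old unless the submitters specified otherwise. The labels give neither the deleted part of Lsp1 nor the method of T cell isolation. They also leave unsaid whether the replicates are separate animals, and a p-value then covers only the spread among these samples, part of which may be technical.

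Neutrophils form in the bone marrow from precursors that fill their granules in a fixed order. Primary (azurophil) granules, made by promyelocytes, hold myeloperoxidase and the serine proteases. Secondary and tertiary granules follow at the myelocyte and metamyelocyte stages, and the S100 proteins accumulate in the cytosol of later cells. The genes of primary granules are switched off before a neutrophil enters the blood, whereas S100a8 and S100a9 stay on in mature cells.

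Every value below is a normalized log2 signal, the log2 of the scanner's processed signal minus the 75th percentile of that array, and pairs of values are replicate 1 and replicate 2. Lsp1, which encodes an F-actin-binding protein of leukocytes, had 3.69 and 3.65 on stimulated KO arrays, against 7.06 and 6.99 on stimulated WT arrays. In medium it had 3.64 and 3.48 on KO arrays, against 7.48 and 7.24 on WT arrays. Every KO array was below every WT array, as the labels would have it. All 15 T cell markers measured were well above background on all 8 arrays, with a summed signal (in units of each array's 75th percentile) of 740 to 858 in stimulated KO cells, 818 to 870 in stimulated WT cells, 792 to 1058 in KO medium and 992 to 1000 in WT medium. Within groups, the root mean square over genes of the SD between both arrays was 0.454 log2 units in stimulated KO cells, 0.250 in stimulated WT cells, 0.431 in KO medium and 0.253 in WT medium.

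The primary granule enzymes came first. Mpo encodes myeloperoxidase, which makes hypochlorous acid from hydrogen peroxide. Its signal was 3.61 and 6.67 on stimulated KO arrays, against 3.60 and 3.11 on stimulated WT arrays, and 4.49 and 7.63 in KO medium, against 4.59 and 4.001 in WT medium. KO replicate 2 was the high array in both conditions, and KO replicate 1 was close to the WT arrays. Elane, neutrophil elastase, had 2.29 and 5.13 on stimulated KO arrays, against 2.54 and 2.15 on stimulated WT arrays, and 2.92 and 6.36 in KO medium, against 2.47 and 2.59 in WT medium. For Ctsg, cathepsin G, the values were 2.72 and 6.17 in stimulated KO cells, against 2.70 and 2.25 in stimulated WT cells, and 3.40 and 7.21 in KO medium, against 3.28 and 2.93 in WT medium. In medium both Elane and Ctsg were also higher on KO replicate 1 than on either WT array, by 0.39 and 0.30 above the WT mean, so their KO and WT arrays did not overlap there. The 250 bases before the gene start of these 3 genes are shown as a description. Capitals mark GGAAGT, a core spelling bound by the Ets-family factor PU.1, or its complement ACTTCC. Matches of the other spellings searched are left unmarked. Sequences and coordinates are those of RefSeq on GRCm38.p6, each read 5′ to 3′ on the strand of its gene.
Mpo, chr11:87793534-87793783, plus strand: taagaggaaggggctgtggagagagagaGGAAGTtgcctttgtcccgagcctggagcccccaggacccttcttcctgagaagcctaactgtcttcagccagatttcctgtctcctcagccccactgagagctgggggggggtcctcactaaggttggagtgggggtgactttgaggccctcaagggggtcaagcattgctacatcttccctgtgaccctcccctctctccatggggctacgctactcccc
Elane, chr10:79886062-79886311, plus strand: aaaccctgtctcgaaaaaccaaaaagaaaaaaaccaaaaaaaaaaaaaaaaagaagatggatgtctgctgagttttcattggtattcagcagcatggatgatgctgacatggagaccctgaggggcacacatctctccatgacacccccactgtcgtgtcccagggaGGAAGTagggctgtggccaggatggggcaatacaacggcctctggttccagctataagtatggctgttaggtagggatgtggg
Ctsg, chr14:56102575-56102824, minus strand: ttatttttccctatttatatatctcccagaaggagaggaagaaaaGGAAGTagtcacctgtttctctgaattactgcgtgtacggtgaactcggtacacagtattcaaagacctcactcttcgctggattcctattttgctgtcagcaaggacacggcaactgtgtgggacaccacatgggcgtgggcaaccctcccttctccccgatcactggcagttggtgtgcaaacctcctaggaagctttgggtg

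The spelling begins 222 bases before the start of Mpo, 83 before that of Elane and 205 before that of Ctsg. Of the 10 genes 9 matched the promoter table, with 10 windows because Mgst1 has a pair of them, and Cebpe had no entry. On either strand GGAAGT stood in 8 of these windows and in 19.7% of all 32851 windows, and GAGGAAG, which overlaps it in letters, in 5 and in 10.6%. Of the other 8 spellings searched on both strands, the C/EBP-like TTNNGCAA stood in 3 windows (9.56% of all) and TTGCNNAAT in 1 (2.11%), and the RUNX-like TGTGGT in 2 (14.0%) and TGCGGT in 0 (5.1%). The Myb-like TAACNG stood in 2 (19.8%) and CAACNG in 3 (29.3%), the Gfi1-like AAATCNNNG in 2 (9.02%) and TATAAA in 2 (12.4%). These are matches of letters, with no test, and no binding was measured.

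For the remaining early genes KO replicate 2 was again the high array. Ms4a3 encodes a membrane-spanning protein of granulocyte and monocyte progenitors. It had 0.07 and 3.75 on stimulated KO arrays, against 0.27 and -0.09 on stimulated WT arrays, and 0.41 and 4.53 in KO medium, against 0.59 and 0.17 in WT medium. KO replicate 1 lay between the WT arrays in both conditions. Cebpe, a transcription factor required for the later stages of granulocyte differentiation, had -1.58 and 1.97 in stimulated KO cells, against -1.87 and -2.14 in stimulated WT cells, and -0.43 and 3.86 in KO medium, against -0.27 and -0.62 in WT medium. Mgst1, a membrane-bound glutathione transferase and peroxidase, had -2.23 and 0.67 on stimulated KO arrays, against -1.71 and -2.15 on stimulated WT arrays, and -1.53 and 1.96 in KO medium, against -1.20 and -1.46 in WT medium. Its other probe named here had -2.71 and 0.29 on stimulated KO arrays, against -2.28 and -2.51 on stimulated WT arrays, and -2.01 and 1.62 in KO medium, against -1.75 and -2.03 in WT medium. Both Mgst1 probes thus placed KO replicate 2 highest in each condition. Fcnb encodes ficolin B, a lectin of myeloid precursors. It had -3.65 and -2.09 in stimulated KO cells, against -5.73 and -6.39 in stimulated WT cells, where it was not well above background on either array. In medium it had -4.61 and 0.17 on KO arrays, against -4.23 and -4.50 on WT arrays. Against the lowest signal well above background on the stimulated WT arrays, the mean of stimulated KO cells was at least 6.82-fold higher. That bound holds for the processed signal alone: KO minus WT was 1.23 log2 units under normexp background correction of the median signal and 1.48 with the deposited value table.

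**Figure D1:**
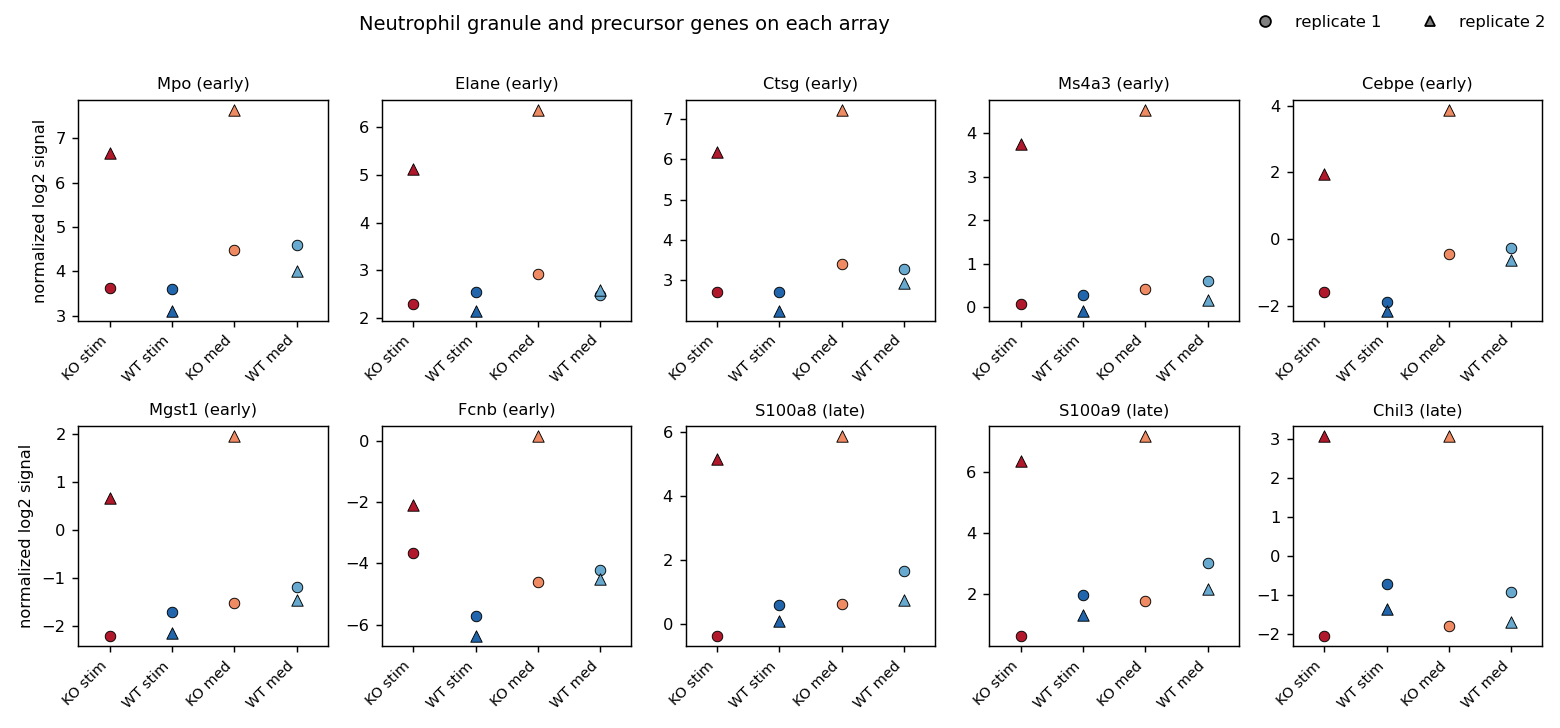
Normalized log2 signal (y axis, a scale of its own in each panel) of the 10 genes in stimulated KO, stimulated WT, KO medium and WT medium cells (x axis), with 1 point per array, circles for replicate 1 and triangles for replicate 2. In each panel the KO triangle is the highest point of its condition, for example 7.63 for Mpo in KO medium against 4.59 and 4.001 in WT medium.

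The late genes differed most between the KO arrays. S100a8 and S100a9 encode the subunits of calprotectin, a calcium- and zinc-binding complex that is abundant in neutrophil cytosol. S100a8 had -0.40 and 5.14 on stimulated KO arrays, against 0.58 and 0.09 on stimulated WT arrays, and 0.61 and 5.86 in KO medium, against 1.63 and 0.75 in WT medium. S100a9 had 0.62 and 6.36 in stimulated KO cells, against 1.96 and 1.33 in stimulated WT cells, and 1.77 and 7.18 in KO medium, against 3.03 and 2.17 in WT medium. KO replicate 2 was far above the WT arrays, and KO replicate 1 was below both of them. Chil3 encodes the chitinase-like protein Ym1, known in mouse from neutrophil precursors and from alternatively activated macrophages. Its values were -2.06 and 3.07 in stimulated KO cells, against -0.72 and -1.35 in stimulated WT cells, and -1.79 and 3.07 in KO medium, against -0.91 and -1.68 in WT medium. Within each condition its arrays stood in the order of those of the S100 genes. The same 250-base windows are shown for these genes, with the same capitals.
S100a8, chr3:90668821-90669070, plus strand: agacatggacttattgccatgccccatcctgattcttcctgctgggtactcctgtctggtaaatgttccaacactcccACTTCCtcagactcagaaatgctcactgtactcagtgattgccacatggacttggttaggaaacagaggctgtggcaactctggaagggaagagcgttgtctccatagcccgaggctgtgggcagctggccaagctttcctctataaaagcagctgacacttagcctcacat
S100a9, chr3:90695722-90695971, minus strand: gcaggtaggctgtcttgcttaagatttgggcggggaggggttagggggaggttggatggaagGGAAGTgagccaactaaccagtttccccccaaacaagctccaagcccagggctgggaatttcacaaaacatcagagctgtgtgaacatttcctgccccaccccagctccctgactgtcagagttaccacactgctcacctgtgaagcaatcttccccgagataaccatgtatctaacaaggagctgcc
Chil3, chr3:106167565-106167814, minus strand: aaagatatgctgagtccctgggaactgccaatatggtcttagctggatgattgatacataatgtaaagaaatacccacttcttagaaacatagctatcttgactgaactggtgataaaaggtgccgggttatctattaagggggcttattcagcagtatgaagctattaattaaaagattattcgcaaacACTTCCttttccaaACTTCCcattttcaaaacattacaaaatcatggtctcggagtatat

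Set against the WT mean of the same condition, KO replicate 2 was higher for all 10 genes, by a median of 3.83 (14.2-fold) after stimulation and 4.23 (18.8-fold) in medium. KO replicate 1 differed from the WT mean by a median of -0.04 after stimulation and -0.09 in medium. After stimulation it was above both WT arrays for 4 genes (Mpo, Ctsg, Cebpe and Fcnb), below both for 4 and between them for 2. In medium it was above both for 2 genes (Elane and Ctsg), below both for 5 and between them for 3. The 3 late genes were below both WT arrays each time. On KO replicate 1 S100a8 was 0.73 below the WT mean after stimulation and 0.58 below it in medium, S100a9 was 1.03 and 0.84 below it, and Chil3 1.02 and 0.49 below it. Arrays of both genotypes did not overlap, with KO higher, for 4 of the 10 genes after stimulation, where 13.2% of all genes did so, and for 2 in medium, where 12.8% did. With KO lower, the count was 0 in both conditions, where 24.8% of all genes did so after stimulation and 21.4% in medium. Since the choice of the genes rests on these arrays, nothing is read from those counts. Over all genes limma called 0.0198% between genotypes after stimulation and 0.00661% in medium, and no test is given for the 10. The KO mean lies between 2 arrays that stand far apart: without both replicate 2 arrays the KO minus WT difference turned negative for 6 genes after stimulation and for 5 in medium.

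Among the 10 genes, the difference between the KO arrays was larger for the 3 late genes than for the 7 early ones. Over the 10 genes, KO replicate 2 was higher than replicate 1 by a median of 3.499 log2 units after stimulation (11.3-fold) and 4.21 in medium (18.4-fold), where the median of all genes was -0.03 and -0.13. For the 7 early genes the median was 3.05 after stimulation and 3.81 in medium, and for the 3 late genes it was 5.54 and 5.25. S100a9 differed by 53.7-fold after stimulation and 42.6-fold in medium, S100a8 by 46.7-fold and 38.0-fold, and Chil3 by 35.0-fold and 29.0-fold. Among the early genes the range was 2.93-fold (Fcnb) to 12.8-fold (Ms4a3) after stimulation, and 8.85-fold (Mpo) to 27.5-fold (Fcnb) in medium. In medium each late gene therefore had a wider difference than each early gene, though Chil3 and Fcnb were close. After stimulation the difference was narrower than in medium for all 7 early genes, by 0.09 (Mpo) to 3.23 (Fcnb) log2 units. The Fcnb value rests on dim signals on KO replicate 1 (processed signal 52.4 in medium and 112.8 stimulated). Fcnb alone was higher there after stimulation, by 0.97. The difference between the KO arrays was wider after stimulation for all 3 late genes, by 0.30 for S100a8, 0.33 for S100a9 and 0.27 for Chil3. With 1 difference per condition, this contrast of early and late genes was not tested. It describes these 10 genes and not later genes in general. The median was 2.79 after stimulation and 2.97 in medium for the 10 secondary and tertiary granule genes measured. For the 18 mature neutrophil genes measured it was 1.32 and 0.66.

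**Figure D2:**
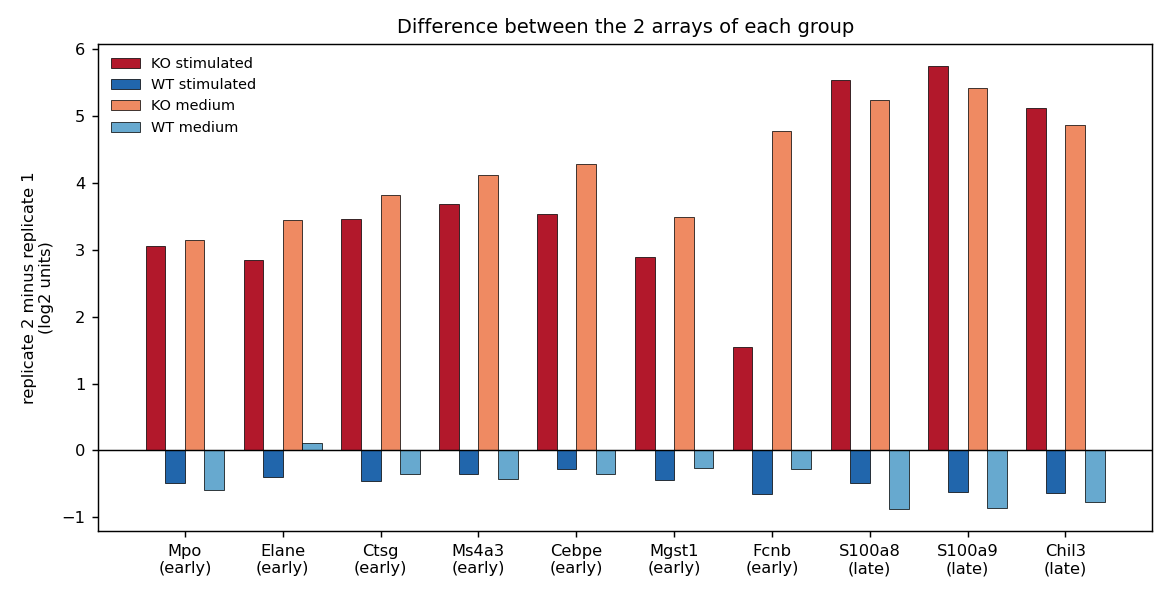
Replicate 2 minus replicate 1 (y axis, log2 units) for each of the 10 genes (x axis), with bars from left to right for stimulated KO, stimulated WT, KO medium and WT medium; each bar is 1 difference between 2 arrays and has no error. The KO bars run from 1.55 (Fcnb, stimulated) to 5.75 (S100a9, stimulated), while the WT bars lie between -0.88 and 0.11.

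KO replicate 2 was at least 2 log2 units above replicate 1 for 331 of 15137 genes after stimulation (2.19%) and for 270 of 15133 genes in medium (1.78%). Of the 10 genes 9 were among them after stimulation, all but Fcnb, and 10 were in medium. This is the measure the list was chosen with in view, so the counts only describe it. Ranked by this difference, S100a9 was 3rd, S100a8 4th and Chil3 7th after stimulation, and Mpo 103rd and Elane 120th. In medium S100a9 was 4th, S100a8 5th, Chil3 9th, Fcnb 10th and Cebpe 14th. Between the WT arrays none of the 10 genes differed by 2 log2 units, and 72 genes did so in either direction after stimulation and 27 in medium. WT replicate 2 was lower than WT replicate 1 for all 10 genes after stimulation (median -0.47) and for 9 of 10 in medium (median -0.39), Elane being the exception at 0.11.

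Across the 8 arrays each of the 10 genes followed the mean of the other 9, with Pearson's r from 0.902 (Fcnb) to 0.996 (Ctsg). These correlations rest on the 2 KO replicate 2 arrays. On the 6 other arrays r ranged from 0.13 (Chil3) and 0.30 (Fcnb) to 0.94 (Mpo, Mgst1), with Ms4a3 at 0.93, Ctsg at 0.89 and S100a8 at 0.84. Of 1476 genes that spanned at least 2 log2 units over the arrays, 129 correlated with the mean of the 10 genes above 0.95 and 0 below -0.95. Closest were Wfdc21, which encodes a whey acidic protein domain protein, Stom (stomatin) and Prtn3 (proteinase 3), with r of 0.998, 0.998 and 0.997. Next came Prg3, an eosinophil granule protein gene, Tgfbi and Hnmt (histamine N-methyltransferase), Rnf217, F5 (coagulation factor V), Tbc1d2 and Epx (eosinophil peroxidase), with r of 0.995 each. All points of a gene share the same 8 arrays, and no p is given.

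The nearest measured genes on the chromosome were compared as a description. Prtn3, next to Elane on chromosome 10, differed between the KO arrays by 3.76 after stimulation and 4.13 in medium, and S100a8 and S100a9 are each other's measured neighbours on chromosome 3. Mcpt8, a basophil protease gene beside Ctsg on chromosome 14, differed by 2.59 and 2.61, and Slc7a8 beside Cebpe by 2.18 and 2.35. For Fcnb both neighbours differed as well, Col5a1 by 2.62 and 1.46 and Olfm1 by 1.71 and 1.42. Chil4, a close relative of Chil3 beside it, differed by 1.89 and 1.97, and Cfd, complement factor D, on the other side of Elane by 1.05 and 1.63. Several others differed little. Lpo, lactoperoxidase, next to Mpo on chromosome 11, differed by -0.06 after stimulation and -0.09 in medium, Dera next to Mgst1 by 0.08 and 0.20, S100a6 next to S100a8 by 0.42 and 0.33, and Chia1, on the other side of Chil3 from Chil4, by -0.02 and -0.09. The neighbours not named so far lay between -0.46 (Lmo3 beside Mgst1, in medium) and 0.87 (Gzmc beside Ctsg, after stimulation).

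Other genes of the neutrophil programme and markers of other blood cells were read on the same arrays, with counts of genes at least 2 log2 units higher on KO replicate 2. Folds are replicate 2 over replicate 1, and a fold given as at least is against the lowest signal well above background where replicate 1 did not reach it. In each neutrophil list the 3 genes given with folds are those of widest range over the 8 arrays. Of the other precursor and primary granule genes 12 of 14 were measured, with 5 past that level after stimulation and 7 in medium. Their median fold was 3.22 after stimulation and 4.82 in medium. Prtn3, a primary granule serine protease, differed by 13.6-fold after stimulation and 17.5-fold in medium, Prss57 by at least 5.34-fold and by 18.6-fold and Lyz2, lysozyme, by 5.85-fold and 8.12-fold. Of the secondary and tertiary granule genes 10 of 13 were measured, with 5 past that level each time. Their median fold was 6.91 after stimulation and 7.83 in medium. Camp, the cathelicidin gene, differed by 43.0-fold and 44.3-fold, Ltf, lactoferrin, by at least 61.0-fold and by 103-fold, and Ngp by at least 77.4-fold and by 78.2-fold. Of the mature neutrophil genes 18 of 20 were measured, with 5 and 6 past that level. Fpr2, a formyl peptide receptor gene, differed by 13.3-fold and at least 9.72-fold, Trem3 by 9.02-fold and 34.1-fold and Lrg1 by 5.28-fold and 12.1-fold. Over the 18 genes the median fold was only 2.50 after stimulation and 1.58 in medium. Among the genes that did not share the difference were the receptor genes Csf3r and Cxcr1. For Csf3r KO replicate 2 minus replicate 1 was -0.34 after stimulation and -0.42 in medium, and for Cxcr1 it was 0.02 and -0.69. Csf3r was bright on every array, from 6.63 (stimulated KO replicate 2) to 7.67 (WT medium replicate 1). Which cells gave this signal was not tested. The neutrophil surface gene Ly6g had no probe named here, and Retnlg and Mmp8 did not pass the filter on dim probes.

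Markers of other cell types moved with the 10 genes on the same KO arrays. Of 11 eosinophil, basophil and mast cell markers 6 were at least 2 log2 units higher on KO replicate 2 after stimulation and 8 in medium, and their summed signal was 10.5 to 44.0 in stimulated KO cells, 12.6 to 13.8 in stimulated WT cells, 13.4 to 74.96 in KO medium and 14.3 to 14.8 in WT medium. Epx differed by 11.9-fold and 17.9-fold between the KO arrays, Ear1 by 8.36-fold and 16.2-fold, and Ear2 by 8.36-fold and 13.8-fold. Of 13 erythroid and platelet markers 10 passed that level after stimulation and 6 in medium, with sums of 27.6 to 207 in stimulated KO cells, 31.2 to 57.5 in stimulated WT cells, 25.9 to 180 in KO medium and 31.3 to 48.5 in WT medium. Of 14 monocyte and macrophage markers 3 and 2 passed it, with sums of 9.42 to 26.4 in stimulated KO cells, 9.63 to 10.8 in stimulated WT cells, 10.75 to 31.2 in KO medium and 10.5 to 14.3 in WT medium. Fcgr1 differed by 6.68-fold after stimulation but only 1.59-fold in medium, and Vcam1 by 4.66-fold and 7.91-fold. Csf1r, the receptor for macrophage colony-stimulating factor, differed by 4.68-fold and 4.66-fold. The 12 cell cycle genes had median differences of 1.35 after stimulation and 1.08 in medium, with sums of 72.1 to 128 in stimulated KO cells, 77.3 to 77.5 in stimulated WT cells, 70.7 to 115 in KO medium and 69.8 to 74.4 in WT medium. Epx, Ear1, Ear2, Fcgr1, Vcam1 and Csf1r were also well above background on KO replicate 1. Their part in the result was not tested, and in such bulk samples fewer cells of a type and less RNA per cell cannot be told apart.

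Lymphocyte markers did not share the difference. The median of replicate 2 minus replicate 1 in KO cells was -0.30 after stimulation and -0.42 in medium for the 15 T cell markers, -0.13 and -0.09 for the 12 B cell markers, and -0.05 and -0.19 for the 10 genes of natural killer cells. Of these genes 0 reached 2 log2 units. The summed B cell signal was 29.0 to 29.99 in stimulated KO cells, 44.2 to 51.6 in stimulated WT cells, 45.4 to 48.7 in KO medium and 57.8 to 68.4 in WT medium. That of the natural killer cell markers was 35.8 to 37.0 in stimulated KO cells, 38.6 to 43.0 in stimulated WT cells, 20.3 to 23.3 in KO medium and 25.3 to 28.8 in WT medium. Both KO arrays of a condition were thus closer for lymphocyte markers than for the granule genes. T cell markers were still mostly lower on replicate 2. Their summed signal on KO replicates 1 and 2 was 858 and 740 after stimulation, and 1058 and 792 in medium.

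**Figure D3:**
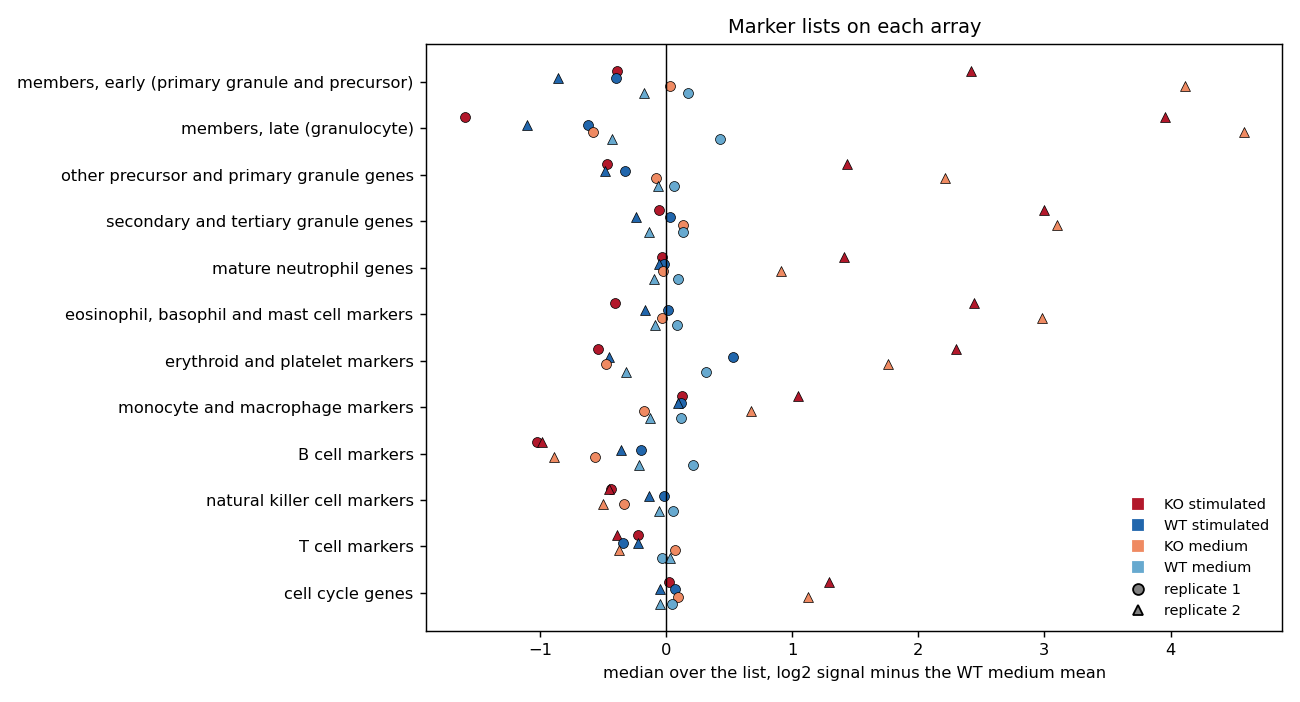
Median over the measured genes of each list (y axis) of the log2 signal minus the WT medium mean of the gene (x axis, log2 units), with 1 point per array, colours for the 4 groups, circles for replicate 1 and triangles for replicate 2. The KO triangles lie to the right for granule, eosinophil and basophil, and erythroid lists. An example is 2.98 for the eosinophil, basophil and mast cell markers in medium. For T cell markers they are the lowest points, at -0.39 stimulated and -0.37 in medium.

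The choice of genes did not rest on the stimulation difference, but the spread between the KO arrays, which enters this test, was in view. Stimulation was tested with limma on group means over all 8 arrays, with no use of the replicate numbers. In KO cells 0 of the 10 genes were called, where 8.12% of all genes were (5.85% higher, 2.27% lower). In WT cells 0 were called, where 10.3% of all genes were (6.42% higher, 3.84% lower). At an unadjusted p below 0.05 the count was 0 in each genotype as well. Stimulated minus medium was negative for all 10 genes in KO cells, with a median of -0.89 against -0.08 over all genes, and for 9 of 10 in WT cells, with a median of -0.74 against -0.09 over all genes. The KO values depend on single arrays: without stimulated KO replicate 1, or without KO medium replicate 2, all 10 became positive (up to 2.43 for Chil3). In KO cells the values ran from -1.52 ± 1.60 for Cebpe (SE, n = 2 arrays per group, limma adjusted p = 0.601) to -0.13 ± 2.04 for Chil3 (0.977). In WT cells Cebpe had -1.55 ± 1.60 (adjusted p = 0.558), Mpo -0.94 ± 1.28 (0.667) and S100a9 -0.96 ± 2.28 (0.816), and Chil3 had 0.26 ± 2.04 (0.949). The standard error exceeded the difference for every gene but Fcnb in WT cells, since the fit shares 1 spread per gene over all groups and the KO arrays of a group lay far apart. The genes were chosen with that distance between the KO arrays in view, so a failed call was likely beforehand. It says little about either genotype, and least about the WT cells, whose arrays lay close together.

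**Figure D4:**
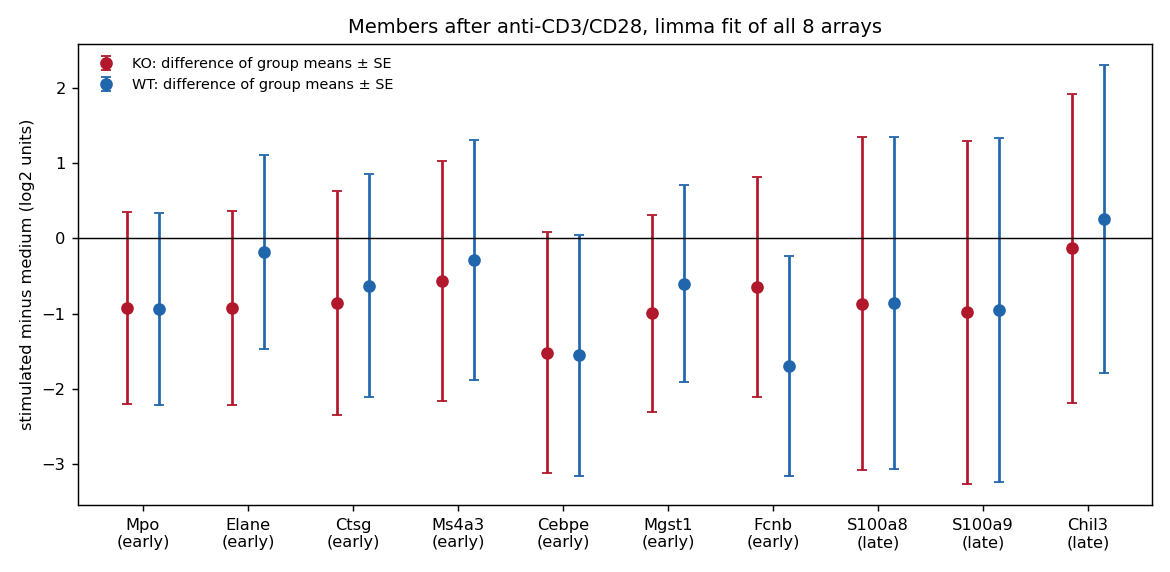
Stimulated minus medium (y axis, log2 units) for the 10 genes (x axis) in KO cells and, to the right of each, in WT cells; points are differences of group means and bars are ± 1 standard error of the limma fit over all 8 arrays. Points lie at or below 0 except Chil3 in WT cells at 0.26, and every bar but that of Fcnb in WT cells crosses 0.

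On single arrays the stimulated values were lower for most of the 10 genes. In WT cells the arrays of both conditions did not overlap, with stimulated cells lower, for 7 of the 10 genes, where 42.1% of all genes did so, and with stimulated cells higher for 0, where 27.4% did. In KO cells stimulated arrays were lower without overlap for 0 of the 10 genes, where 28.6% of all genes were, and higher for 0, where 22.8% were. The genes were chosen with the distance between the KO arrays of a condition in view. That distance makes an overlap nearly certain, so nothing is read from the KO counts. The labels do not say that replicate numbers pair the arrays, and fits that use the numbers are given at the end. Taken by number all the same, stimulated minus medium had a median over the 10 genes of -0.69 on KO replicate 1 and -1.004 on KO replicate 2. In WT cells it was -0.78 on replicate 1 and -0.68 on replicate 2. The early genes differed by a median of -0.68 on KO replicate 1, -1.23 on KO replicate 2, -0.57 on WT replicate 1 and -0.69 on WT replicate 2. The late genes differed by -1.01, -0.72, -1.06 and -0.66 on the same arrays, so neither set was lower throughout. Chil3 had 3.07 on both KO replicate 2 arrays.

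With the WT arrays fitted alone, 2 of the 10 genes passed, both lower, where 9.42% of all genes were called lower and 8.51% higher. Cebpe fell by 1.55 ± 0.18 on the log2 scale in stimulated WT cells (limma, adjusted p = 0.0161), lower on both stimulated arrays than on either medium array. Fcnb passed at an adjusted p of 0.0264 with a measured difference of -1.70 ± 0.26, but it was not well above background on the stimulated WT arrays, which puts it at least 2.42-fold lower on the processed signal. The measured difference was only -0.38 under normexp and -0.44 with the deposited value table. Mpo missed the threshold at -0.94 ± 0.28 (adjusted p = 0.0902), and the other 7 genes had adjusted p from 0.106 (Mgst1) to 0.629 (Chil3).

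The response of KO cells minus that of WT cells ranged over the 10 genes from -0.74 ± 1.82 (Elane) to 1.05 ± 2.06 (Fcnb), with 0 called, where 0.00661% of all genes were. At an unadjusted p below 0.05 the count was also 0. The same distance between the KO arrays made a call unlikely here, so these counts say little. Few genes of the same programme outside the list passed on stimulation, where 8.12% of all genes did in KO cells and 10.3% in WT cells, and nothing particular to these lists is read from their counts. Gfi1, a transcriptional repressor active in granulocyte precursors and in activated T cells, rose by 1.01 ± 0.21 in KO cells (limma, adjusted p = 0.0394) and by 1.12 ± 0.21 in WT cells (adjusted p = 0.0280). It was the only one of the 12 other precursor and primary granule genes called, and 0 of the 10 secondary and tertiary granule genes were. Of the 18 mature neutrophil genes 1 was called higher and 1 lower in each genotype. G0s2, an inhibitor of triglyceride breakdown, rose by 1.52 ± 0.21 in KO cells (adjusted p = 0.0116) and by 2.16 ± 0.21 in WT cells (adjusted p = 0.00422), and Cxcr1 fell by 1.54 ± 0.22 (adjusted p = 0.0132) and by 1.56 ± 0.22 (adjusted p = 0.0134).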

How the data were processed

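Per the file headers, the authors' deposited files are Agilent Feature Extraction 10.7.1.1 output, and the intensity used is the processed signal, on a linear scale after that program's background subtraction. The deposited value table equals the scanner's median intensity (0 values differing). Each array held 62976 spots, 3671 of them controls. Here, log2 of the processed signal minus the array's 75th percentile (1200 to 1469) was taken without control and outlier spots, and repeated spots were averaged. The share of probes called well above background by the scanner software was 58.4% to 69.2% per array.

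A probe was kept if some group had it well above background on each of its arrays (37257 of 55681). Names came from RefSeq accessions (GRCm38.p6), 26056 probes being named. A gene was its brightest named probe. The headers name mm9, so no probe coordinates are given.

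Group means were fitted with limma 3.58.1 in R 4.3.3 over all 8 arrays (4 residual and 2.11 prior degrees of freedom), with files read by data.table (version 1.17.8). Two-sided p-values received Benjamini-Hochberg adjustment over 15139 genes, with calls below 0.05. The fit was tested on simulated data. Alternatives changed the background correction (normexp, offset 50, run on the median signal in place of the planned mean signal, which these files lack), normalization, filter, probes, value source, arrays fitted and replicate block. Leaving out arrays was also tried.

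The members and lists were chosen with earlier results of these data known. Named genes are Lsp1, the 10 genes, the 10 genes closest to the mean, and genes of the other neutrophil, eosinophil and monocyte lists. In those lists they are the 3 of widest range and up to 4 called on stimulation. The same rule was planned for the erythroid, lymphocyte and cell cycle lists, but these are given only as medians, counts and sums. The neighbours of the 10 genes and Csf3r lie outside this rule and were chosen after their values were seen.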

Additional observations from a re-analysis of the deposited data

How the results depend on the processing

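The medians over the 10 genes of KO replicate 2 minus replicate 1, and of stimulated minus medium on each replicate, kept their sign under normexp, quantile normalization, averaged probes and the deposited value table (3.39 to 3.499 after stimulation and 3.96 to 4.32 in medium for the first). Counts of called genes did change. For stimulation in WT cells, 1553 became 3003 with no filter, 2714 with only those groups and 2714 without both KO replicate 2 arrays. In KO cells 1229 became 38 with only those groups and 436 without both. Of the 10 genes, 2 (Cebpe and Fcnb) were called in WT cells with only those groups and also 2 without both KO replicate 2 arrays. For KO minus WT in medium, 1 became 0 in each of those settings. After stimulation, 3 became 1 under normexp and 1 with the deposited table, and 0 in each of those settings. For the difference between responses, 1 became 3 with quantile normalization and 0 under normexp, the deposited table, no filter, both replicate blocks and without both KO replicate 2 arrays. Leaving out 1 array at a time gave 199 to 1751 genes for stimulation in WT, 366 to 1481 in KO, 1 to 2 for KO minus WT in medium, 0 to 13 after stimulation, and 0 to 1 for the difference, with 0 of the 10 genes each time for stimulation and for the difference. The lowest came without WT stimulated replicate 1 (199) and without KO medium replicate 2 (366). The causes were not tested, beyond fewer arrays or more genes in the fit.

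Values of single genes turned as well. Without both KO replicate 2 arrays, KO minus WT after stimulation was -0.06 for Elane, -0.02 for Ms4a3, -0.29 for Mgst1, -0.73 for S100a8, -1.03 for S100a9 and -1.02 for Chil3. In medium it was -0.20 for Mgst1, -0.25 for Fcnb, -0.58 for S100a8, -0.84 for S100a9 and -0.49 for Chil3. Stimulation in KO was then 0.97 for Fcnb. Leaving out 1 array at a time, stimulation in KO ranged from -2.50 to 0.65 for Mpo, -2.65 to 0.79 for Elane, -2.77 to 1.04 for Ctsg, -2.62 to 1.4997 for Ms4a3, -3.67 to 0.62 for Cebpe, -2.74 to 0.75 for Mgst1, -3.04 to 1.74 for Fcnb, -3.64 to 1.91 for S100a8, -3.86 to 1.89 for S100a9 and -2.70 to 2.43 for Chil3. In WT it ranged from -0.39 to 0.012 for Elane and -0.13 to 0.64 for Chil3. The difference between responses ranged from -2.46 to 0.98 for Elane and -1.34 to 3.44 for Fcnb, and for Fcnb it was -0.40 under normexp and -0.30 with the deposited table.

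The labels do not say that replicate numbers mark an animal, litter or day, and each genotype has 2 numbers. Deviations of same-numbered arrays correlated over genes at 0.742 between stimulated and medium KO arrays, 0.16 for WT, -0.24 between KO and WT after stimulation and -0.06 in medium. A common replicate block gave 1559 calls for stimulation in WT and 1148 in KO, with 0 of the 10 genes. A replicate block within genotype gave 3522 in WT with 5 of the 10 genes (Mpo, Ctsg, Cebpe, S100a8, S100a9) and 2774 in KO with 7 (those and Elane, Mgst1), all lower. Since the numbers are not known to pair the arrays, these counts are a hint only.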
